A study of Mus musculus with 2 samples.

Results

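In all, 8 transcripts of the T cell receptor response, out of 19937 genes with a probe set of their own on the array, were followed in TR1 cells (type 1 regulatory T cells, CD4 T cells that make IL-10). They were the zinc finger factors Egr1, Egr2 and Egr3, their co-repressor Nab2, the orphan nuclear receptors Nr4a1, Nr4a2 and Nr4a3, and the HMG-box factor Tox. A gene was taken by its symbol where the platform annotation gave a probe set that symbol alone, and each of the 8 had exactly 1 such probe set. The cells came from the small intestine of mice given anti-CD3 (clone 2C11), 15 μg into the peritoneum, 2 injections on alternate days. One sample, called wildtype, came from mice with an unaltered IL-10 receptor alpha chain. The other, called impaired, came from mice with the CD4-DNIL-10R transgene, whose name denotes a dominant-negative IL-10 receptor driven in CD4-expressing cells. Killing 4 or 48 hours after the second injection is given for both samples alike, so genotype and time cannot be told apart if the samples differed in time. Age, number of mice and sorting strategy are not given in the labels.

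EGR and NR4A genes are immediate early genes: an engaged T cell receptor switches them on without new protein synthesis. Signals through ERK act on SRF and its ternary complex partners, which bind CArG boxes, while calcium acts through calcineurin on NFAT and through kinases on CREB-type factors, which bind the cAMP response element (CRE). EGR2 and EGR3 restrain T cell activation and are linked to anergy and to IL-10 production, NAB2 is induced by EGR factors and damps them, and NR4A factors and TOX take part in the dysfunction of T cells under lasting stimulation.

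DNA before the transcription starts of the members is shown as a description. Whether its motifs have a part in the members' differences was not tested. RefSeq promoter windows (GRCm38.p6) were at hand for 5 members, namely Egr2, Nab2, Nr4a1, Nr4a2 and Nr4a3, with 5 windows for Egr2 and 1 for each of the others. The 250 bases before each start were searched on both strands for the CArG box, CRE (TGACGTCA), the CRE core TGACG, the EGR site GCGNGGGCG, the NR4A element NBRE (AAAGGTCA), the ETS core CCGGAA and the NFAT core GGAAAA. A CRE match holds 2 overlapping CRE cores. Stretches of at most 30 bases follow, on the strand of the gene, with CArG boxes and CRE cores (TGACG, or CGTCA where it lies on the other strand) in capitals. For Egr2 the window with most of these matches was used, the first by position where windows tied.
Egr2, chr10:67537746-67537775, plus strand: aaattggccatgTGACGgcaaaagctgcca
Egr2, chr10:67537793-67537822, plus strand: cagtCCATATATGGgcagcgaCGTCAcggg
Nr4a1, chr15:101266611-101266640, plus strand: tgCGTCAatggaaccccgcgtgCGTCAcgc
Nr4a1, chr15:101266765-101266794, plus strand: ccgggccgtgtgCGTCAgtggcgcccccgc
Nr4a1, chr15:101266794-101266823, plus strand: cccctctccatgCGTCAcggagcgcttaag
Nr4a2, chr2:57124186-57124215, minus strand: ccgccaggccggCGTCActggcagggcgcc
Nr4a2, chr2:57124120-57124149, minus strand: cgCGTCAcggagcccggccgggcTGACGgg
Nr4a2, chr2:57124092-57124121, minus strand: gggccgcTGACGcgcttggccgcggggccg
Nr4a3, chr4:48045071-48045099, plus strand: gggTGACGtagcgtcccatgtCGTCAcat
Nr4a3, chr4:48045097-48045126, plus strand: catTGACGtctcgcattccaggcactctat
Nr4a3, chr4:48045146-48045175, plus strand: ctgtggcataaaTGACGtgccgagagagcg

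Each of the 3 NR4A windows held 4 CRE cores, and 0 held the full CRE, a CArG box or an NBRE. Of all 32851 promoter windows, 17.8% held at least 1 CRE core, 3.90% at least 2 and 0.137% at least 4. The NR4A windows are rich in G and C, at 74.4% for Nr4a1, 80.0% for Nr4a2 and 63.6% for Nr4a3. Nr4a1 and Nr4a2 also held 1 EGR site each, as 4.70% of all windows did, and Nr4a1 held 1 ETS core, against 12.0% of all windows. Egr2 differed from them in having a CArG box, found in 1.47% of all windows, in 4 of its 5 windows. In 3 of those 4, which overlap, it was the same box with 2 CRE cores beside it. The fourth, further upstream, held another box with 3 ETS core matches and 1 NFAT core. Of those ETS matches 2 overlap each other on opposite strands, and the NFAT core overlaps both. The remaining Egr2 window and the Nab2 window held 0 matches to any of the motifs. The Egr2, Nr4a1 and Nr4a3 windows reach into the span of a longer annotated transcript of the same gene, and those of Nr4a2 and Nab2 do not. A match describes letters only, and no binding was measured.

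**Figure D1:**
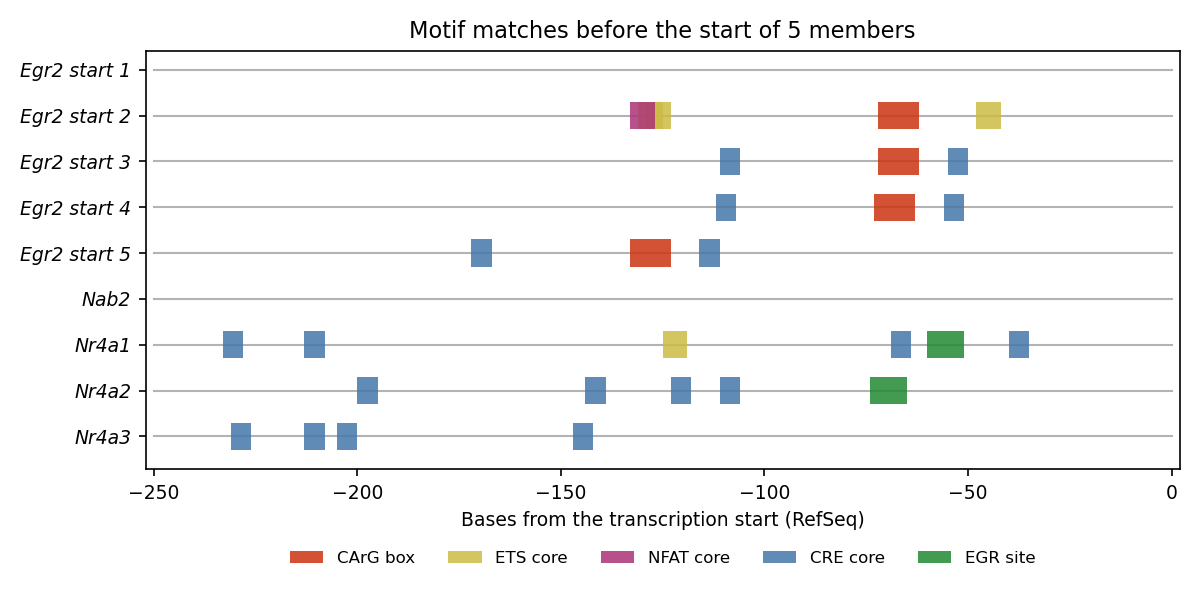
Positions of motif matches on either strand in the 250 bases before the transcription starts of 5 members; the x axis is distance from the start in bases, each line is a RefSeq window and boxes are matches drawn to scale. The 3 NR4A windows each carry 4 CRE cores, while CArG boxes appear only in Egr2 windows among those drawn.

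Values below are log2 RMA expression, the background-corrected and normalized brightness of a probe set on 1 array, and differences are impaired minus wildtype. With 1 array per genotype there was no spread between replicates, no difference was tested, and sizes were read against a rule of 2-fold (1 on the log2 scale). Genes counted as past the floor when the brighter sample reached 6.91, the middle brightness of the table (each probe set averaged over the samples), as 11124 genes did. A gene under the floor in 1 sample therefore entered through the other, in which it is brighter by that rule. Il10ra, the receptor gene the transgene concerns, was at 9.92 in wildtype and 12.30 in impaired, and whether its probe set reads the transgene is not known. T cell identity was present in both samples, with Cd3e at 13.58 and 13.57, Cd4 at 13.14 and 13.18, Il10 at 12.94 and 12.92 and Lag3 at 11.41 and 11.36 in wildtype and impaired.

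All 8 members were past the floor in both samples, and 0 of 8 differed by 2-fold, where 1.65% of all genes past the floor did. At a rule of 1.5-fold the count was also 0 of 8, against 7.39% of all genes. Of the members 6 were brighter and 2 dimmer in the impaired sample, while 50.2% of all genes were brighter and 49.5% dimmer. After loess centring, which removes a brightness-dependent shift of between -0.061 (Nab2) and -0.047 (Egr3 and Nr4a1), 7 were brighter, against 54.4% of all genes. The members' median difference was 0.065, beside 0.0025 over all genes past the floor. In all 7 of the 8 lay within 0.2 of 0, as 56.7% of all genes did, so closeness of this kind was common on these arrays. The member outside that bound was Egr2.

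**Figure D2:**
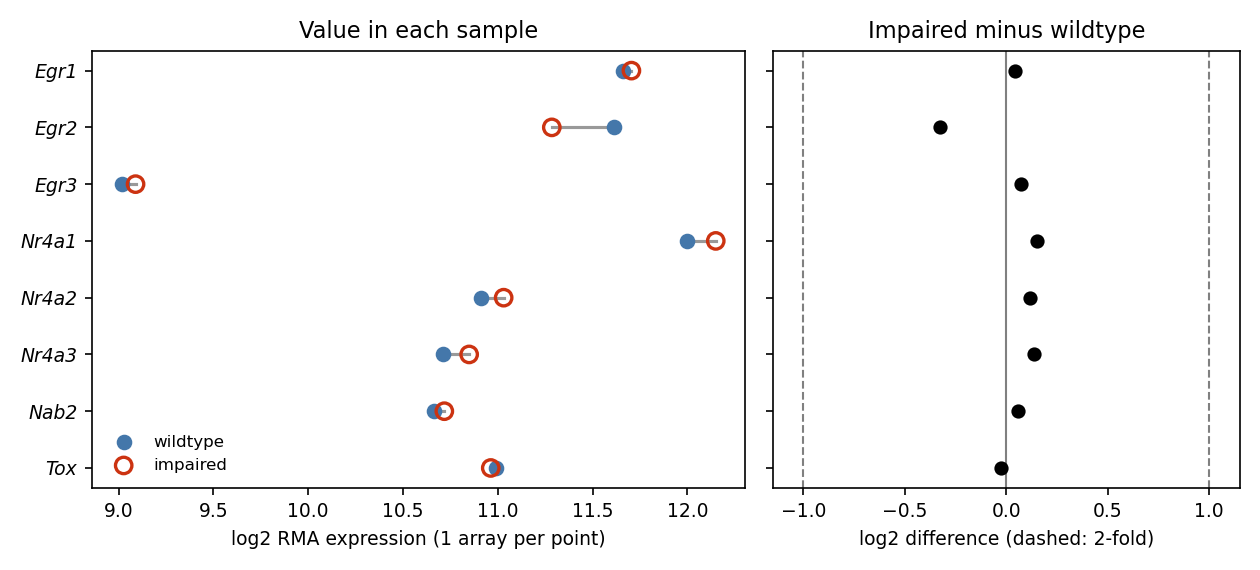
Left, log2 RMA expression of the 8 members in the wildtype (filled) and impaired (open) sample, 1 array per point with no error available; levels of different probe sets are not comparable with each other. Right, the log2 difference with dashed lines at 2-fold; Egr2 lies at -0.33 and the other 7 between -0.027 and 0.15.

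Egr2, the factor tied to anergy and IL-10 production, was read by probe set 10363735 at 11.61 in wildtype and 11.29 in impaired. The difference of -0.33 made the wildtype sample 1.25-fold brighter on the linear scale. It was the lowest difference among the members, but 1024 of the 11124 genes (9.21%) lay as low or lower. In either direction, 22.8% of genes differed by at least as much.

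The other EGR factors did not share that value. Egr1, which responds to ERK signalling in many cell types, was at 11.66 in wildtype and 11.71 in impaired (probe set 10454782), a difference of 0.042 or 1.03-fold. Egr3, which overlaps with EGR2 in function, was at 9.02 and 9.09 (probe set 10416251), a difference of 0.073 or 1.05-fold. Both were marginally brighter in the impaired sample where Egr2 was dimmer. The gap between the differences of Egr3 and Egr2 was 0.40 (1.32-fold), and that between Egr1 and Egr2 was 0.37 (1.29-fold). Neither gap has a replicate check.

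Nab2, the EGR-induced co-repressor, was at 10.66 in wildtype and 10.72 in impaired (probe set 10373313), a difference of 0.057 or 1.04-fold. Its difference was nearer to those of Egr1 and Egr3 than to that of Egr2, from which it was 0.38 away. In either direction, 82.1% of genes differed by at least as much as Nab2, so this nearness groups it with none of them. Its paralogue Nab1 was at 11.60 and 11.48, a difference of -0.12. Egr4, the remaining EGR gene, was under the floor in both samples at 6.55 and 6.79, so its difference of 0.24 concerns a dim probe set.

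The 3 NR4A genes were all slightly brighter in the impaired sample and lay close together. Nr4a1 (Nur77), whose transcription follows the strength of receptor signalling, was at 12.00 in wildtype and 12.15 in impaired (probe set 10427035), a difference of 0.15 or 1.11-fold. Nr4a2 (Nurr1) was at 10.91 and 11.03 (probe set 10482772), a difference of 0.12 or 1.08-fold. Nr4a3 (Nor1) was at 10.71 and 10.85 (probe set 10504838), a difference of 0.14 or 1.10-fold. These 3 values spanned 0.036, against 0.40 over the EGR genes. Differences of this size were ordinary on the arrays: 28.4% of genes lay at or above the difference of Nr4a1, 33.0% at or above that of Nr4a2 and 30.4% at or above that of Nr4a3. The widest gap between any members was the 0.48 (1.39-fold) between Nr4a1 and Egr2.

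Tox, which is induced by sustained calcineurin and NFAT signalling, had the smallest absolute difference of the members. It was at 10.99 in wildtype and 10.96 in impaired (probe set 10511416), a difference of -0.027, and 91.8% of genes differed by at least as much in one direction or the other. Its relative Tox2 was at 9.43 and 9.47 (0.045). Tox4, a broadly expressed relative, was at 11.42 and 10.81, a difference of -0.61 or 1.53-fold. Tox3 was under the floor in both samples. The TOX list past the floor therefore held 2 genes, 1 above and 1 below 0, with a median of -0.28 (0.045 over all 3 genes with no floor).

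**Figure D3:**
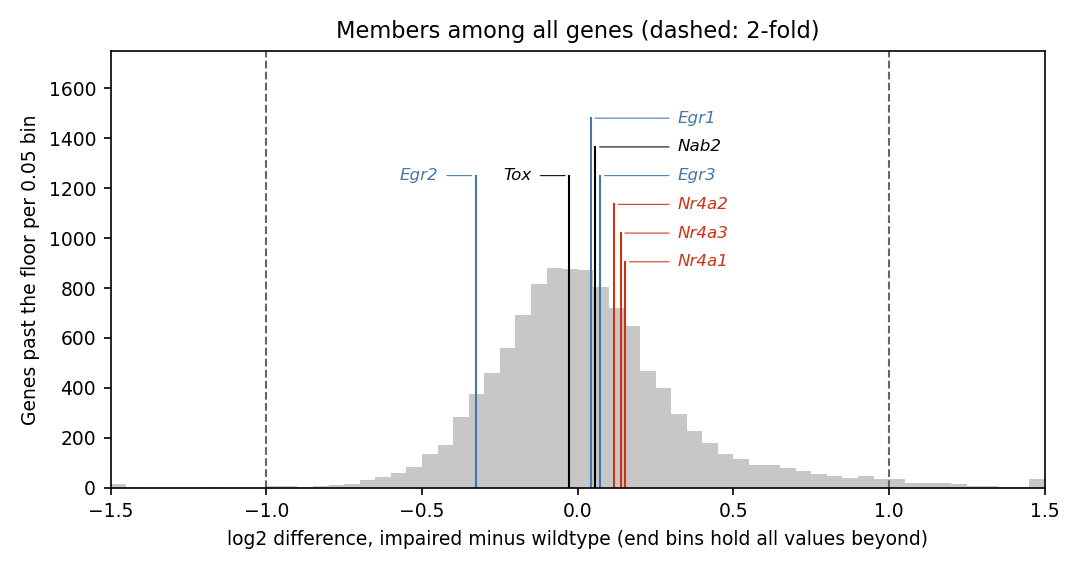
Histogram of the log2 difference (impaired minus wildtype, x axis) of the 11124 genes past the floor, in bins of 0.05, with the 8 members as vertical lines (EGR blue, NR4A red, others black; line height has no meaning). Egr2 stands on the left shoulder with 9.21% of genes at or below it, and the other 7 sit in the body of the distribution.

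Genes upstream of the members were measured in the same 2 arrays. Of 17 genes of proximal receptor signalling past the floor, 5 were above 0 and 12 below, with a median of -0.019, which turned to 11 and 6 with a median of 0.024 after loess centring; 0 differed by 1.5-fold. Nck1, an adaptor, had the largest difference at -0.49 (9.51 in wildtype, 9.02 in impaired), Rasgrp1, which activates RAS in T cells, was at 0.24, and Grb2, another adaptor, at -0.23. Zap70, the kinase that binds the phosphorylated CD3 chains, chosen after its value was seen, was at 11.78 and 11.96. Calcineurin and NFAT signalling is known to drive Egr2, Egr3, the NR4A genes and Tox. The calcineurin and NFAT list, which mixes drivers with inhibitors of calcineurin such as Rcan1, Rcan3 and Cabin1, had 8 of 15 genes above 0. Its median was 0.007 (12 above 0 and 0.050 after loess centring, -0.01 with the floor at the 75th percentile). Past 1.5-fold it had 0, against the same 7.39% of all genes. Its largest differences were those of the calcium channel gene Itpr3 (0.46), the calcineurin subunit gene Ppp3r1 (-0.34) and Nfatc2 (0.21).

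The factors that bind the CArG box and CRE, with their partners, differed in both directions, from -0.43 to 0.43. The list of SRF, the CREB-type factors and partners of both also held Mef2a and Mef2d. Of its 13 genes past the floor, 6 lay above 0 and 7 below, with a median of -0.001 (8 above, 5 below and 0.061 after loess centring). In this list 0 were past 1.5-fold, where 7.39% of all genes were. Srf itself, also chosen after its value was seen, was at 9.55 in wildtype and 9.64 in impaired. Elk1, a ternary complex factor, was dimmer at 10.21 and 9.79 (-0.43), Creb1 at 10.69 and 10.33 (-0.35), and the SRF co-activator Mrtfb was brighter at 8.67 and 9.10 (0.43). Of 7 RAS and ERK genes, 3 were above 0 and 4 below, with a median of -0.077 (-0.016 after loess centring, -0.15 with the floor at the 75th percentile). Here too 0 were past 1.5-fold. Among all genes past the floor, 50.2% lay above 0 (54.4% after loess centring) and 7.39% passed 1.5-fold. Map2k2, which phosphorylates ERK, differed by 0.24, Braf by -0.23 and the ERK-activated kinase gene Rps6ka3 by -0.23.

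Other genes that T cells induce on activation were more often brighter than dimmer in the impaired sample. Of 41 past the floor, 26 were above 0 (63.4%, against 50.2% of all genes) and 15 below, with a median of 0.105. After loess centring 32 were above 0 (78.0%, against 54.4% of all genes) and 9 below, with a median of 0.17. Before centring 2 were 1.5-fold brighter (5.89% of all genes were) and 0 were 1.5-fold dimmer (1.5% of all genes were). Those 2 were Dusp4, a MAP kinase phosphatase (7.09 in wildtype, 7.89 in impaired), and Atf3, a stress-induced factor (8.34 and 9.05). Ier3, an early response gene that followed them in size, was at 7.05 and 7.62, a difference of 0.57. The NR4A differences, from 0.12 to 0.15, and that of Egr2, at -0.33, fell on either side of this median. Epithelial and myeloid cells also express many genes of this list, and their markers are given below.

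Genes that EGR factors are known to induce or restrain in T cells had a median of 0.10 over 22 genes, 13 above and 9 below 0 (16 and 6 after loess centring). Of all genes 50.2% were above 0, or 54.4% after loess centring. Id3, counted at 0.34, was under the floor in wildtype. Nrgn, which encodes neurogranin, alone passed 2-fold (1.65% of all genes did), at 7.68 in wildtype and 8.70 in impaired (1.02). With the offset of 32 or the floor at the 75th percentile the list had 0 genes past 2-fold, and with that floor its median was -0.017. Zbtb16, the factor PLZF, differed by 0.54, and Rnf128, the anergy-linked ubiquitin ligase GRAIL, by 0.48 (8.51 and 8.99). The other anergy-linked genes of the list, chosen after their values were seen, were the ligase genes Cblb (-0.11) and Itch (0.005) and the diacylglycerol kinase genes Dgka (0.16) and Dgkz (0.25).

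The list of genes tied to NR4A- and TOX-driven dysfunction had 9 of 21 genes above 0 and 12 below, and a median of -0.048, which became 11 above, 10 below and 0.007 after loess centring. Eomes, counted at 0.26, was under the floor in wildtype. Il2, which is shut down in dysfunctional T cells, was at 6.32 in wildtype, under the floor, and at 7.40 in impaired, a difference of 1.08 and the only one past 2-fold, where 1.65% of all genes were. With the offset of 32 or the floor at the 75th percentile 0 genes of the list passed 2-fold. Entpd1, the ectonucleotidase CD39, was at 9.81 and 10.42 (0.61), and Lef1, a factor of memory and naive cells, at 8.15 and 8.56 (0.41). The 7 inhibitory receptor genes of the list, chosen after their values were seen, ranged from Cd244a at -0.39 and Cd160 at -0.39 through Pdcd1 at -0.13, Havcr2 at -0.090, Ctla4 at -0.061 and Lag3 at -0.048 to Tigit at 0.070. Both Cd244a and Cd160 lay further from 0 than Egr2. The list of relatives and partners of the EGR and NR4A factors, which also held Bcl11b (0.028), had 4 of 5 genes past the floor above 0. Its median was 0.096, and its largest difference was that of Rxra, a dimer partner of NR4A1 and NR4A2 (7.39 and 7.92, 0.53). Wt1, a zinc finger factor that binds EGR-like sites, differed by 0.20.

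Likeness in pattern says little with 2 arrays and was taken only as nearness of the log2 difference, among 137 list genes past the floor. Nearest to Egr2 (-0.33) were Crem, a CREB-type factor, at -0.32 and Bcl6 at -0.34. Nearest to Nr4a1 (0.15) were the calcineurin gene Ppp3ca at 0.15 and the kinase gene Dgka at 0.16, and nearest to Nr4a2 were Runx1 and Nfatc1, at 0.12 and 0.11. Nr4a3 lay nearest to Dusp5 (0.15) and Zfp36l1 (0.13). Egr1 lay nearest to Mapk7 (0.041), then equally near to Foxp3 and Rcan1 (both 0.039) and Tox2 (0.045), Egr3 to Tigit (0.070) and Map2k1 (0.068), Nab2 to Ier5 (0.046) and Map2k1, and Tox to Prkcq and Stim1 (both -0.028).

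**Figure D4:**
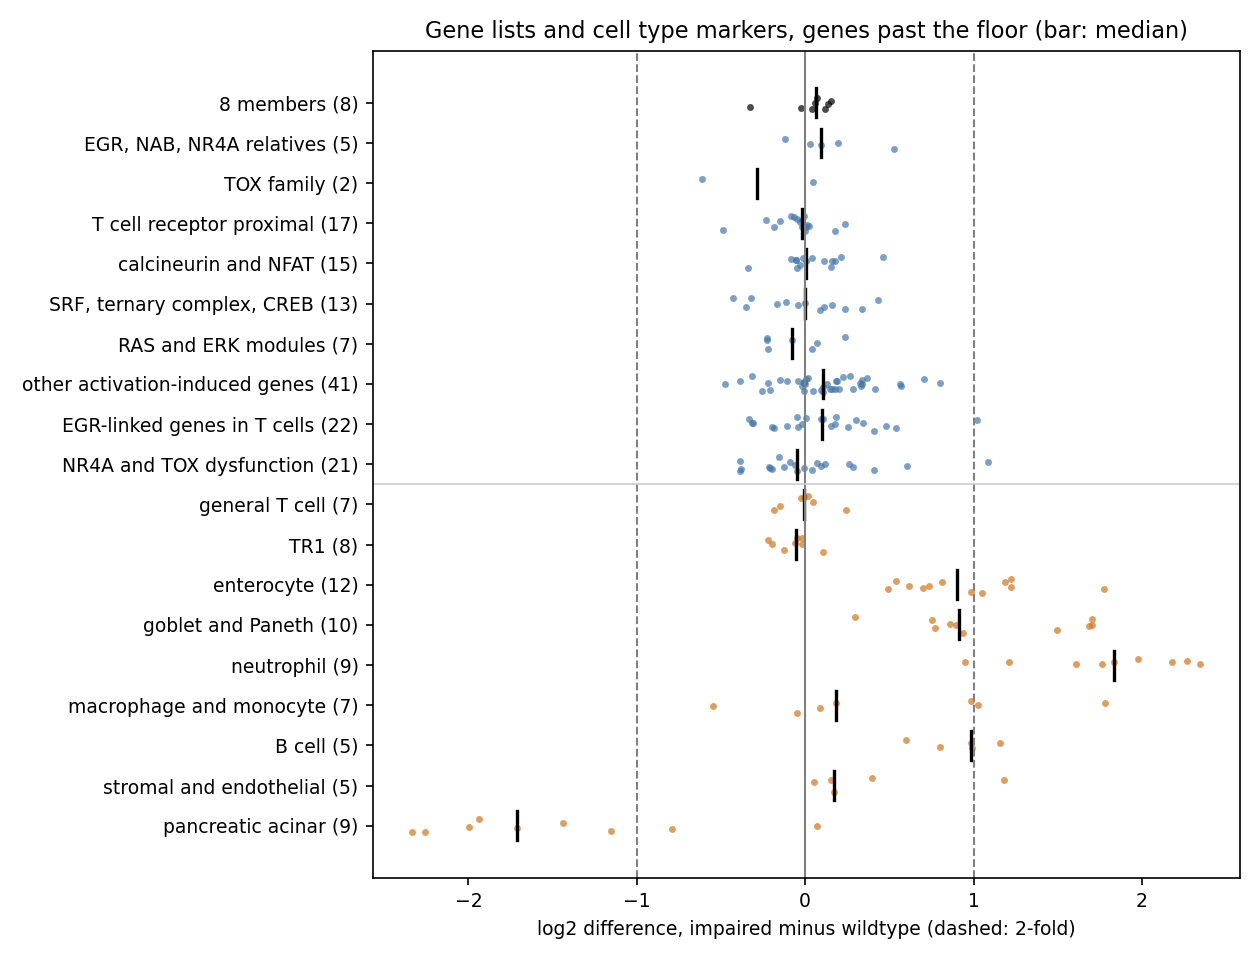
Log2 difference (impaired minus wildtype, x axis) of each gene past the floor, by list, with the number of genes in brackets and the median as a bar; members in black, gene lists in blue, cell type markers in orange, dashed lines at 2-fold. The members and the signalling lists have medians near 0, while enterocyte, goblet and Paneth, neutrophil and B cell markers lie to the right and pancreatic acinar markers to the left.

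Since EGR and NR4A genes are induced in most cell types, markers of other cells are given beside the members' values. The medians of the enterocyte, goblet and Paneth, neutrophil, B cell and pancreatic acinar markers lay further from 0 than any member. All 12 enterocyte markers were brighter in the impaired sample (median 0.90), with linear values summing to 16920 in wildtype and 29960 in impaired. All 10 goblet and Paneth markers were brighter (median 0.92, sums 25670 and 43500). So were all 9 neutrophil markers past the floor (median 1.83, sums over 11 markers 2117 and 6894). Among these, Itln1, Ang4, Mmp8, Ltf and Cxcr2 were under the floor in wildtype and passed it in the impaired sample alone. Of 9 B cell markers 5 passed the floor and were brighter (median 0.99, or 0.60 over all 9 with no floor, sums 2686 and 4969). They included Cd74 (1.16), H2-Eb1 (0.99) and H2-Ab1 (0.80), which serve MHC class II presentation and are not confined to B cells, and Blnk (0.99). The remaining marker of those 5 was Cd79b, at 8.82 in wildtype and 9.42 in impaired (0.60), while Cd79a, Ms4a1, Pax5 and Cd22 were under the floor in both samples. Of 9 pancreatic acinar markers 8 were dimmer (median -1.71; sums 11000 and 4036).

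Of 7 macrophage and monocyte markers past the floor 5 were above 0, or 6 after loess centring (median 0.18, sums over 11 markers 5109 and 5140). At 2-fold 2 were brighter and at 1.5-fold 3 were, against 1.46% and 5.89% of all genes. At either rule 0 were dimmer (0.198% and 1.5% of all genes). Lyz2 (1.78) and Tyrobp (1.03) passed 2-fold, and Cd14 (0.98) passed 1.5-fold only. Cd14 and C1qa (0.18) were under the floor in wildtype and passed it in the impaired sample alone. Cybb, the brightest of these markers, was at -0.55. Csf1r and Adgre1 were under the floor in both samples. Stromal and endothelial markers had a median of 0.17 over 5 of 10 (sums 1230 and 1457). Of those 5, Dcn and Col3a1 passed the floor in the impaired sample alone. General T cell markers had 3 of 7 above 0 and a median of -0.006, or 5 and 0.027 after loess centring (sums 49160 and 48100). Of 8 TR1 markers 7 were below 0 with a median of -0.054, or 4 with -0.010 after loess centring (sums 44050 and 41340). The part of these cells in the members' values was not tested, and in bulk RNA fewer cells of a type and less RNA per cell cannot be told apart.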

How the data were processed

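RNA of 2 samples, 1 Affymetrix array per genotype, was used. Per the submitters' processing notes, the authors made the log2 values with affy and RMA; versions and build were not given in the sources used here. With 34760 probe sets, the deposited table runs from 3.86 to 14.63 in wildtype and 3.84 to 14.66 in impaired, without detection calls. RMA compresses folds of dim probe sets, and scanner files were not used here. Of the probe sets, 21640 had 1 symbol in GEO's platform annotation, 1321 several and 11799 were not listed. A gene with several probe sets (954 genes) was read by its brightest, and symbols were checked against RefSeq (GRCm38.p6), which changed 0.

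Samples were grouped by title. Differences were impaired minus wildtype, counted at 2-fold, with no test; the number of arrays limits the precision. Members and lists were chosen with earlier results of these data known. Named were the members, Egr4, Nab1, Il10ra, the 3 largest differences of each of 9 lists, and the 2 list genes nearest to each member; markers, and genes marked as such, come on top. List genes with no probe set of their own were not analysed here, nor were protein sequences. Alternatives were loess centring (span 0.3), an offset of 32 on the linear scale, averaged probe sets where a gene has several, a floor at the 75th percentile (8.86), no floor and a 1.5-fold rule. Counting was tested on simulated data. Python 3.11.15, numpy 2.4.6, pandas 2.3.3, statsmodels 0.14.6 and matplotlib 3.10.9 were used.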

Additional observations from a re-analysis of the deposited data

How the results depend on the processing

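The count of members past 2-fold was 0 under every alternative run. Differences of Egr1, Egr2, Egr3, the NR4A genes and Nab2 kept their sign under loess centring, the offset and the mean of probe sets; Egr2 ranged from -0.33 to -0.27 and Nr4a1 from 0.15 to 0.20. Tox changed sign, from -0.027 to 0.032, with loess centring, and so did the medians near 0 of the proximal receptor, SRF and dysfunction lists, as given above. The share of all genes past the rule was 1.02% with no floor and 7.39% at 1.5-fold, against 1.65%. The settings that end the Nrgn and Il2 counts, or turn the medians of the EGR-linked, the TOX and the calcineurin and NFAT lists, stand beside those results. No paired analysis was possible because each genotype has 1 array.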
